A study of Lepidium sativum with 30 samples.

Results

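The 100 most stable transcripts of germinating garden cress (Lepidium sativum) seed were taken as those whose share of the sequenced RNA varied least between dry and imbibed seed, with and without the phytotoxin Myrigalone A (MyA). The table holds 48306 assembled transcript contigs, and each count was divided by its library total and multiplied by 1000000 (CPM). Contigs with a mean of at least 50 CPM over 29 libraries were kept, the 100 contigs highest in dry seed were left out, and the 4390 remaining contigs were ranked by the standard deviation over the mean of CPM (SD/mean). The first 100, or 2.28% of those that could be chosen, are described here.

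Poly(A) RNA of whole seeds was sequenced in 6 groups of 5 libraries. They were dry seed (DS), seed imbibed without MyA for 6 h and 12 h (C6, C12), and seed imbibed with 0.5 mM MyA for 6 h, 12 h and 18 h (M6, M12, M18). MyA is a dihydrochalcone of Myrica gale that delays the germination of cress seed, and rupture of the endosperm set in at 12 h in the control and at 18 h with MyA, as the study staged its seeds. All libraries carry the same genotype label, "L. FR14; Keimsprossen; Juliwa". Imbibition was at 20 °C in continuous light. There was no 18 h control, so M18 was set against C12, where treatment and imbibition time cannot be told apart. Whole seeds hold embryo, endosperm and testa together, so fewer cells of a type and less RNA per cell cannot be told apart in these levels. The ranking used every library except M18 library 5, which the study set aside as an outlier.

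A dry seed carries messenger RNA stored during maturation. On imbibition part of this store is degraded while new transcripts for energy metabolism, translation and cell wall loosening are made, until the endosperm ruptures and the radicle emerges. Transcripts with steady levels through such a change are used as references in RT-qPCR, where the level of a target is given relative to theirs. A steady share of the library is not the same as a steady amount per seed, because a share also depends on all other transcripts.

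Library totals of the 30 libraries ran from 20218374 to 33609057 counts. The contig named by the study as the late embryogenesis abundant (LEA) gene AT2G35300, whose protein protects the drying embryo, stood at 102.4 ± 45.9 CPM in DS (SD, n = 5) and 6.28 ± 3.09 CPM in C12 (n = 5). TIP3;1, a water channel of the protein storage vacuole, stood at 39.9 ± 14.3 CPM in DS and 1.68 ± 0.703 CPM in C12. The LEA 3 family contig AT1G02820 reached at most 0.851 CPM in the 29 libraries and showed no such fall, with 0.196 ± 0.0447 CPM in DS and 0.554 ± 0.206 CPM in C6. The composition of the libraries shifted with imbibition. The 100 contigs highest in dry seed held 29.6% ± 2.21 of the counts in DS (n = 5) and between 9.84% and 12.22% on average in the imbibed groups. The 100 stable contigs held between 1.28% and 1.36% on average in every group.

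The SD/mean of the 100 stable contigs ran from 6.89% to 12.8%, with a median of 11.2%, while the median of all 4390 contigs was 35.2%. The list was chosen by these values, so they are given as a description. Their mean levels ran from 50.3 to 657 CPM with a median of 97.9 CPM, 51 of them below 100 CPM and 12 at 200 CPM or more. Over the 4390 contigs the rank correlation of level and SD/mean was -0.01, a description across contigs that share the same libraries. Counting error alone would give a median SD/mean of 1.90% for the 100, and the observed SD/mean was at least 2.65 times the counting error of each contig, with a median of 5.64 times. No contig of the list was flat to within counting error.

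**Figure D1:**
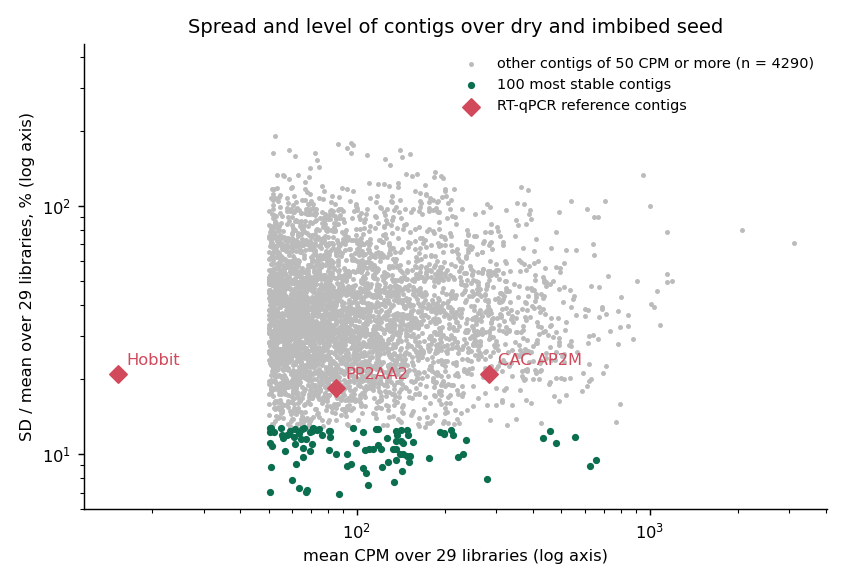
SD/mean over 29 libraries (%, log axis) against mean CPM (log axis) for the 4290 other contigs of 50 CPM or more (grey), the 100 most stable contigs (green) and the RT-qPCR reference contigs (red diamonds). The green points form the lower edge of the cloud, at 6.89% to 12.8%, over levels of 50.3 to 657 CPM, and the reference contigs lie above them at 18.47% to 21.1%.

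The edge of the list was narrow. The last contigs inside were TC_47848, TC_45884 and TC_46323, with an SD/mean of 12.76%, 12.77% and 12.79%. The first outside were TC_68650, TC_37042 and TC_70570, at 12.79%, 12.90% and 12.90%. Leaving out 1 library at a time kept between 86 and 98 of the 100, and 77 were kept all 29 times. The lowest number kept came without M12 library 4.

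The highest group mean of a contig was 1.05 to 1.41 times the lowest, with a median of 1.25, and 53 of the 100 were below 1.25. The median of this ratio over the 4390 contigs was 2.59. The highest single library was 1.31 to 1.96 times the lowest, so all 100 stayed within a 2-fold range over the 29 libraries that chose them. The share of the variance of log2 CPM that lay between groups had a median of 49.4% for the 100 and 88.5% for the 4390, and the SD/mean within groups had medians of 8.19% and 13.8%.

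None of the 100 is paired with a gene name in the parts of the study's tables read here, so they are given by contig name only. Contig lengths and sequences were not analysed here, so levels of different contigs are not compared. Contigs that are pieces of the same transcript, or that come from another species, could not be recognised.

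TC_38365 had the lowest SD/mean, 6.89%, at a mean of 87.2 CPM. Its level was 87.8, 84.9, 85.0, 78.3 and 78.1 CPM in DS, 101.3, 83.2, 89.6, 84.3 and 85.6 CPM in C6 and 88.7, 95.2, 85.8, 91.6 and 96.4 CPM in C12. With MyA it was 91.4, 94.4, 90.4, 89.2 and 91.6 CPM in M6, 82.0, 75.1, 82.1, 85.5 and 92.3 CPM in M12 and 80.5, 81.3, 86.1 and 92.0 CPM in the 4 M18 libraries used. The highest library was in C6 and the lowest in M12. The groups overlapped, apart from M6, whose libraries all lay above those of DS.

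TC_63215 had an SD/mean of 7.001% at a mean of 67.0 CPM. Its level was 73.3, 80.8, 68.5, 61.9 and 76.0 CPM in DS, 65.8, 68.2, 65.0, 58.3 and 60.1 CPM in C6 and 67.1, 66.5, 65.5, 67.0 and 68.0 CPM in C12. With MyA it was 63.7, 69.2, 67.0, 70.6 and 60.7 CPM in M6, 69.9, 63.2, 65.4, 72.8 and 65.7 CPM in M12 and 66.4, 66.0, 67.8 and 63.4 CPM in M18. Dry seed held both the widest spread and the highest library of this contig, and the C12 libraries, at 65.5 to 68.0 CPM, had the narrowest.

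TC_25996 had an SD/mean of 7.02% at a mean of 50.5 CPM, just over the minimum level. Its level was 54.3, 52.3, 50.3, 43.2 and 54.5 CPM in DS, 46.7, 51.1, 47.3, 46.2 and 45.6 CPM in C6 and 55.7, 53.6, 49.9, 51.0 and 53.5 CPM in C12. With MyA it was 45.1, 46.5, 48.3, 50.8 and 47.7 CPM in M6, 54.2, 55.7, 48.3, 56.8 and 52.2 CPM in M12 and 50.3, 52.6, 51.6 and 50.4 CPM in M18. Both 6 h groups stood lowest, with and without MyA, and overlapped with the other groups.

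The next contigs in the ranking differed in where their extremes lay. TC_38825 ran from 55.3 CPM in a C6 library to 74.3 CPM in a C12 library, with a group mean of 63.1 ± 5.07 CPM in C6 and 70.9 ± 3.50 CPM in C12 (n = 5 each). TC_68441 ran from 53.5 CPM in M12 to 73.2 CPM in C12, and its highest group mean, in C12, was 1.10 times its lowest, in M12. TC_59810 ran from 94.3 CPM in an M6 library to 133.1 CPM in DS library 1, and the next highest library was at 119.0 CPM. TC_65056 was highest in M6, at 144.5 ± 10.4 CPM, and lowest in C12, at 125.7 ± 4.61 CPM, and these groups overlapped, M6 starting at 129.4 CPM and C12 ending at 133.1 CPM.

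TC_64094 was level in 5 of the groups and higher in M18. Its libraries were 74.2, 70.6, 66.4 and 66.0 CPM in M18 and 55.0, 61.6, 62.8, 61.1 and 61.3 CPM in C12, without overlap. Every M18 library lay above all the other 25 libraries used. TC_67099 ran from 246.9 to 353.5 CPM, its highest value being DS library 1, and without that library DS ran from 280.5 to 298.6 CPM. TC_38816 was highest in M18, at 115.0 ± 2.34 CPM (n = 4), and DS, at 114.6 ± 7.42 CPM (n = 5), and lowest in C6, at 99.97 ± 3.98 CPM (n = 5).

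**Figure D2:**
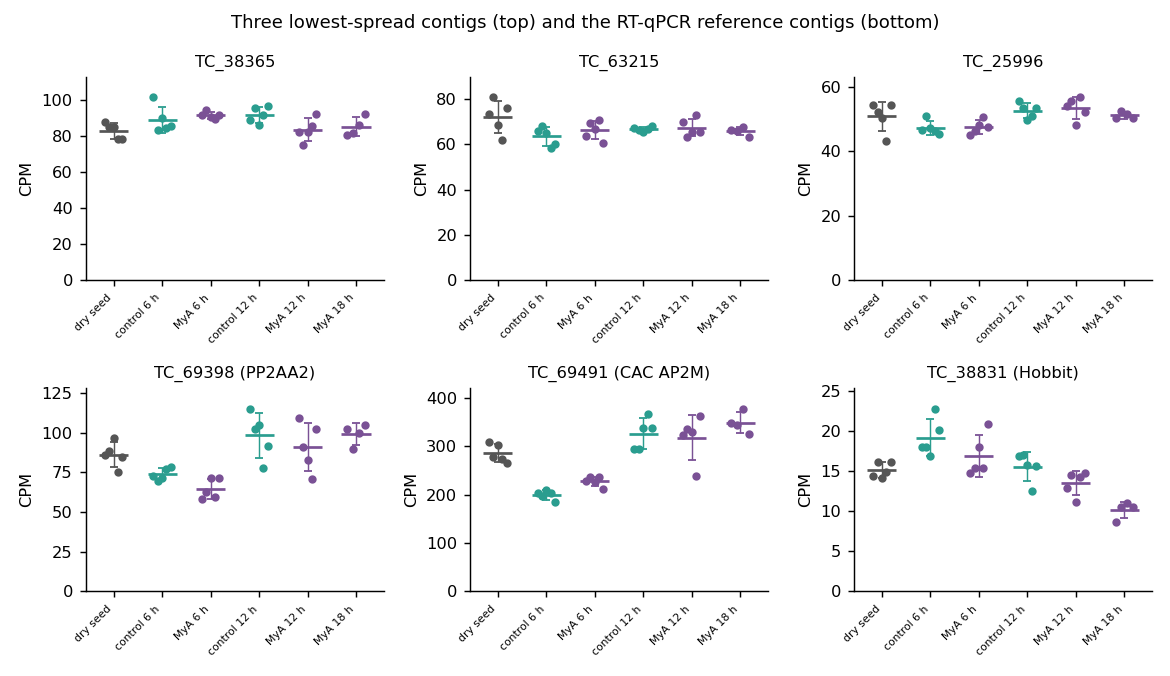
CPM in each library by group for the 3 contigs of lowest SD/mean (top) and the RT-qPCR reference contigs (bottom), with points for libraries, lines for group means and bars for ± 1 SD (5 libraries, 4 in MyA 18 h). TC_38365 stays between 75.1 and 101.3 CPM, while CAC AP2M goes from a mean of 199.3 CPM in control 6 h to 348.2 CPM in MyA 18 h.

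The most abundant of the 100 were TC_40767, TC_39624, TC_67969, TC_65077 and TC_37794, with means of 657, 625, 558, 478 and 457 CPM. TC_40767 had its lowest group mean in DS, 596 ± 69.4 CPM, and its highest in C6, 698 ± 34.1 CPM. TC_39624 was lowest in C6, 586 ± 83.5 CPM, and highest in M12, 681 ± 37.7 CPM. In C6 this contig stood at 494.9 and 495.8 CPM in libraries 4 and 5 and at 633.5 to 665.3 CPM in the other 3. TC_67969 and TC_65077 were also lowest in C6, at 497 ± 53.9 CPM and 429 ± 69.2 CPM. TC_37794 had the widest range of these over libraries, 320.1 to 619.2 CPM.

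The 5 contigs with the largest ratio of group means showed where the stable list still moved. In 4 of them the lowest group was M18. TC_68814 was at 102.1, 103.1, 114.6 and 109.2 CPM in M18 and at 161.2, 149.4, 147.9, 144.4 and 147.5 CPM in C12, without overlap, a ratio of 1.41 between M12 and M18. TC_44619 was at 51.2, 55.6, 57.3 and 54.8 CPM in M18, below all other libraries used, the lowest of which was at 63.8 CPM. TC_67357 was at 67.9, 65.8, 66.9 and 68.7 CPM in M18 and at 87.3 CPM or more in M6. TC_68003 was at 46.1 ± 4.40 CPM in M18 (n = 4) and 64.1 ± 5.54 CPM in M6 (n = 5). TC_68827 was the exception, with its lowest mean in DS, 57.9 ± 2.95 CPM, and its highest in C12, 80.5 ± 5.79 CPM (n = 5 each), and these groups did not overlap.

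Over the whole list the lowest group mean was most often DS, in 28 of the 100, and M18, in 27, followed by C6 in 19, M6 in 17, M12 in 8 and C12 in 1. The highest was C12 in 32, M18 in 19, M12 in 15, DS in 12 and C6 and M6 in 11 each. The most frequent pairs were lowest in DS and highest in C12, in 11, and lowest in M18 and highest in C12, in 10. Such counts were not made over the 4390 contigs, so nothing is read from them. The median of the 4390, as log2 of CPM over own mean, ran from -0.56 to -0.37 in the DS libraries. In the C12 libraries it ran from -0.0020 to 0.14. A contig of the list at its own mean would stand at 100%, and the median contig stood at 97.9% in DS, 97.9% in C6, 98.8% in M6, 105.4% in C12, 102.3% in M12 and 98.3% in M18. These are levels in CPM, the scale on which the list was chosen.

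**Figure D3:**
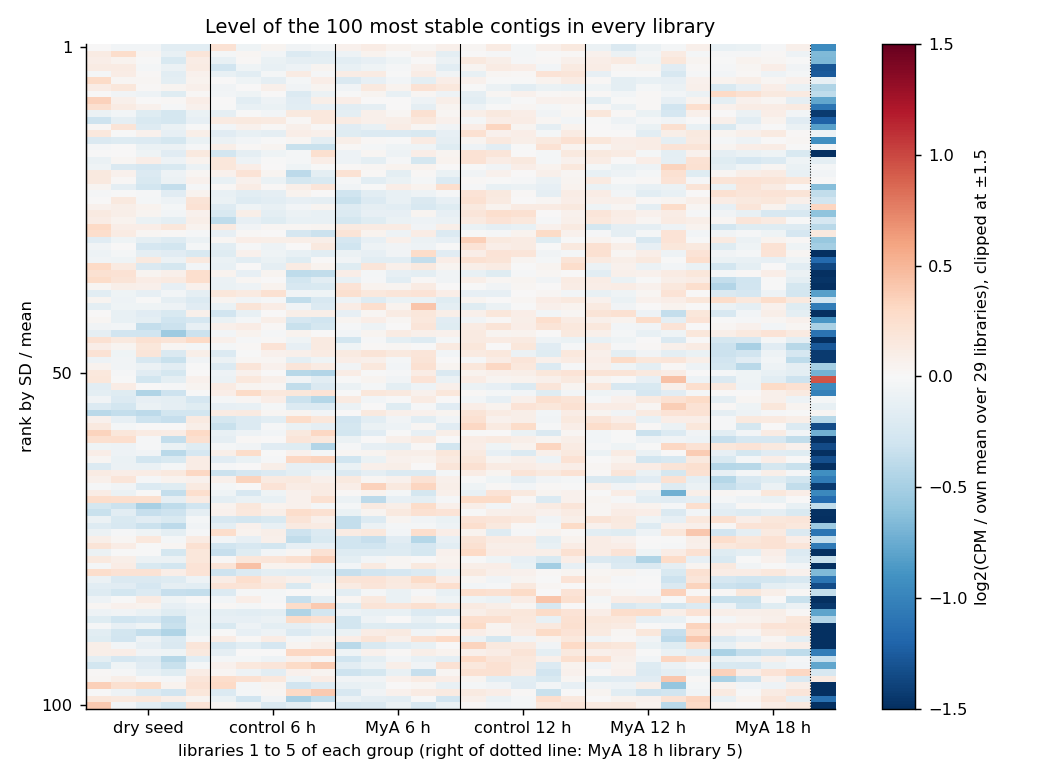
Log2 of CPM over the contig's own mean for the 100 most stable contigs (rows, ordered by SD/mean) in the 30 libraries (columns, by group). The 29 libraries that chose the list are pale, and the last column, MyA 18 h library 5, is dark blue in most rows, with a median log2 difference of -0.89 from the other MyA 18 h libraries.

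Single libraries set many of the extremes. C6 library 4 and DS library 4 were the lowest of the 29 for 13 contigs each, and M12 library 5 was the highest for 12. M12 library 4 had the widest scatter, with an SD over the 100 contigs of 0.22 on the log2 scale relative to each contig's mean, while the narrowest, C12 library 5, had 0.09. M12 library 4 was the lowest library for 8 contigs and the highest for 10.

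The RT-qPCR reference contigs were PP2AA2 (TC_69398), a scaffold subunit of a serine/threonine protein phosphatase, CAC AP2M (TC_69491), the medium subunit of the clathrin adaptor AP-2, and Hobbit (TC_38831), the CDC27 subunit of the anaphase-promoting complex. Per its methods, the study tested candidate reference genes, selected with geNorm and calculated RT-qPCR levels against the 3 best, which are these. The share of sequenced RNA used here is another measure, so the ranks below are no judgement of that choice. None of the 3 was among the 100. PP2AA2 had an SD/mean of 18.47% at 85.2 CPM, and 438 of the 4390 contigs had a lower one. CAC AP2M had 21.1% at 281.9 CPM, with 694 contigs lower. Hobbit had 21.0% at 15.2 CPM, below the minimum level of the list, so it could not have been chosen.

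PP2AA2 was at 86.1, 88.3, 96.9, 75.0 and 85.0 CPM in DS, 72.7, 69.8, 71.5, 77.4 and 78.7 CPM in C6 and 115.2, 102.2, 104.8, 78.0 and 92.0 CPM in C12. With MyA it was at 64.6 ± 6.54 CPM in M6 (n = 5), 91.3 ± 15.2 CPM in M12 (n = 5) and 99.3 ± 6.65 CPM in M18 (n = 4). Its lowest levels were thus at 6 h in both treatments. CAC AP2M had the same low point, at 309.3, 277.9, 302.4, 274.6 and 264.7 CPM in DS, 203.2, 197.3, 209.3, 203.1 and 183.6 CPM in C6 and 294.1, 293.3, 338.6, 367.1 and 338.0 CPM in C12. Hobbit ran the other way, from 19.2 ± 2.34 CPM in C6 (n = 5) to 10.2 ± 1.02 CPM in M18 (n = 4).

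In the edgeR quasi-likelihood test over 22155 contigs, with TMM factors, CAC AP2M fell from DS to C6 by 1.04 on the log2 scale (SE 0.096, adjusted p = 1.52e-06, 5 libraries against 5) and rose from C6 to C12 by 0.67 (SE 0.098, adjusted p = 8.51e-05). Its mean in C6 was also below that in DS in CPM (199.3 against 285.8). Scaling by the 3 reference contigs used the sum of their counts. CAC AP2M made up most of that sum, at a mean of 281.9 CPM beside 85.2 CPM for PP2AA2 and 15.2 CPM for Hobbit. On that scale CAC AP2M was divided mostly by itself (256.2 in C6 against 277.5 in DS), so this value adds little. PP2AA2 fell by 0.74 (edgeR, SE 0.085, adjusted p = 8.88e-06) from DS to C6 and rose by 0.36 (SE 0.11, adjusted p = 0.0117) from C6 to C12. Scaled by the reference contigs, and so mostly by CAC AP2M, its mean was higher in C6 than in DS (95.2 against 83.8). Hobbit fell from C12 to M18 by 0.54 (edgeR, SE 0.11, adjusted p = 0.00566). For the MyA comparisons at 6 h and 12 h none of the 3 passed, with edgeR adjusted p from 0.696 to 0.956.

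The stability of a pair of transcripts can be measured without any scaling of libraries, as the SD over libraries of their log2 ratio, and the geNorm stability value M is its mean over all partners. Among the 100, M ran from 0.17 to 0.25 with a median of 0.21, lowest for TC_25996. Against the same 100 partners PP2AA2 had an M of 0.29, CAC AP2M 0.33 and Hobbit 0.34. The closest of the 4950 pairs was TC_70607 with TC_69035, with an SD of 0.08, and the widest pair had 0.34. Between the references the SD was 0.23 for PP2AA2 with CAC AP2M, 0.49 for PP2AA2 with Hobbit and 0.59 for CAC AP2M with Hobbit. Since the 100 were chosen for moving little and the references were not chosen here, M is a description of the list and no test.

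The 32 RT-qPCR target contigs lay at the other end. The study describes the genes it compared by RT-qPCR as selected MyA-regulated ones, so a wide spread over these libraries was built into that choice. Their SD/mean ran from 54.3% to 201.5%, each above every one of the 100. All had a mean below 50 CPM, so none could have entered the list. Their counting error was larger too, up to 25.9% beside at most 2.65% for the 100, so the values are a description.

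Over the first 6 h of imbibition the list was level, lower or higher according to how libraries were scaled. A contig was called when the edgeR adjusted p was below 0.05 and the log2 fold change beyond 1, the criterion of the study's methods. In C6 against DS 49.9% of all tested contigs were called, and 0 of the 100. The rule used these libraries, so nothing is read from this count or from those of the other comparisons. With no fold threshold, 95 of the 100 were lower and 0 higher in C6 under TMM factors (38.6% lower and 41.5% higher among all tested). DESeq2 passed 98 of the 100 in either direction. The share of all tested contigs that DESeq2 passed was not counted in any comparison, so nothing is read from its counts. The median log2 fold change of the 100 was -0.51, within a range of -0.91 to -0.10, while the median over all tested contigs was 0.04.

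Under other scalings the same median took other values and signs. By library size without factors, the scale on which the list was chosen, it was 0.0064, and the median over all tested contigs was then 0.56. On that scale 25 of the 100 passed the adjusted p alone, beside 80.9% of all tested contigs. With RLE factors the median of the 100 was -0.55. Scaled by the summed counts of the 3 reference contigs, mostly those of CAC AP2M, it was 0.41, with 0.96 over all tested contigs. The distance between the list and the median contig was therefore 0.55 under each of these scalings to within 0.01, and only the zero point moved. The share of the 100 contigs highest in dry seed, 29.6% in DS against 11.9% ± 2.43 in C6 (n = 5 each), moved with it, and its part in the difference was not tested.

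The 95% interval of the log2 fold change under TMM factors lay within -0.5 and 0.5 for 16 of the 100, beside 9.86% of all tested contigs. In CPM, 10 of the 100 had C6 libraries all above those of DS and 7 all below, beside 49.2% and 22.1% of all tested contigs. TC_38365 illustrates the dependence, with 82.8 ± 4.38 CPM in DS and 88.8 ± 7.40 CPM in C6 (n = 5 each), but 111.5 ± 8.04 and 88.1 ± 8.90 CPM with TMM factors and 80.5 ± 2.22 and 114.2 ± 9.37 when scaled by the reference contigs. Its level in C6 relative to DS was close to even, lower or higher according to the scale.

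**Figure D4:**
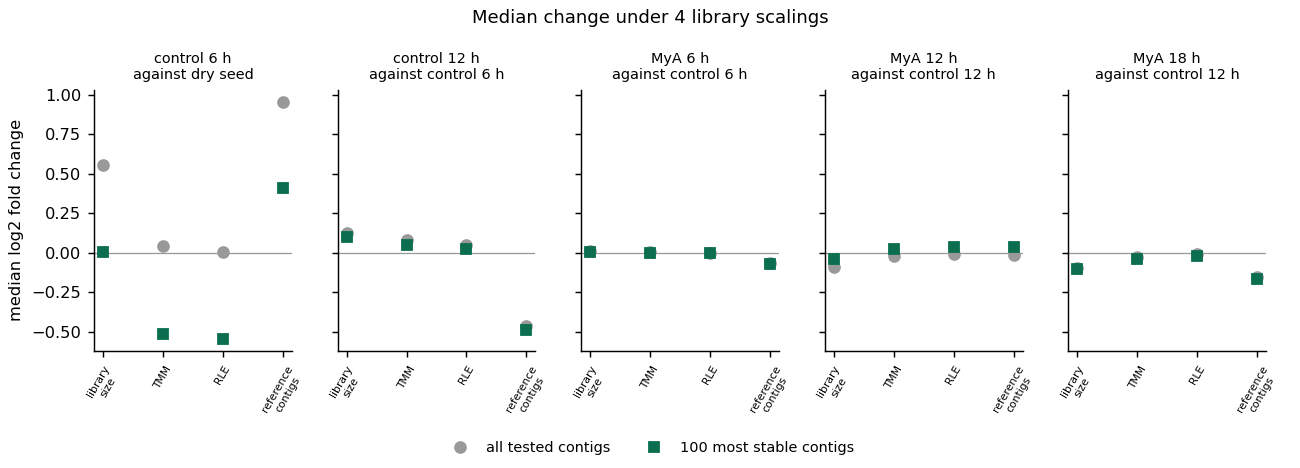
Median log2 fold change of the 100 most stable contigs (green squares) and of all tested contigs (grey circles) in 5 comparisons under 4 library scalings. In control 6 h against dry seed the squares move from -0.55 (RLE) to 0.41 (reference contigs) with the circles about 0.55 above them, and in the other comparisons squares and circles lie close together.

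The C6 and C12 libraries also ranked the list. Under TMM factors the median log2 fold change in C12 against C6 was 0.05 for the 100 and 0.08 for all tested contigs, with a range of -0.31 to 0.37 for the 100. The median size of the log2 fold change, regardless of sign, was 0.11 for the 100 and 0.57 for all tested contigs. None was called, beside 27.4% of all tested. With no fold threshold 9 were higher and 4 lower (32.1% and 31.2% among all tested). DESeq2 passed 23 of the 100 in either direction. By library size without factors edgeR passed 22, beside 64.1% of all tested contigs. In CPM 14 had all C12 libraries above those of C6 and 2 all below (28.3% and 24.2% among all tested), and the 95% interval lay within -0.5 and 0.5 for 96 (13.3%). The largest shift was that of TC_68735, with a log2 fold change of 0.37 (95% interval 0.16 to 0.58), and the largest fall that of TC_39432, at -0.31 (-0.53 to -0.08). Both were singled out after their values were seen. Scaled by the reference contigs the median was -0.49 for the 100 and -0.47 for all tested contigs. On that scale 98 of the 100 passed the adjusted p, beside 65.5% of all tested contigs. The levels of PP2AA2 and CAC AP2M rose in CPM over the same hours as given above.

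The MyA comparisons at 6 h and 12 h used libraries that also ranked the list, so small differences were built into the choice and the values are a description. In M6 against C6 the median log2 fold change was -0.00 with a range of -0.22 to 0.20, and in M12 against C12 it was 0.03 with a range of -0.12 to 0.19. None of the 100 was called in either, beside 0.0135% and 8.59% of all tested contigs. In the study most contigs higher with MyA at 12 h matched neither Arabidopsis nor Brassica. It states that such contigs may include contamination from other species, so the share at 12 h may include it too. With no fold threshold edgeR and DESeq2 both passed 0 of the 100 in each (0.0135% and 8.98% of all tested contigs in edgeR). An unadjusted edgeR p below 0.05 was found for 5 and 1 of the 100. The share of all tested contigs at that limit was not counted, so nothing is read from these counts. The 95% interval of the log2 fold change lay within -0.5 and 0.5 for all 100 in both comparisons, as it did for 51.6% and 53.8% of all tested contigs. TC_38365, for example, had 0.03 (-0.16 to 0.22) at 6 h and -0.07 (-0.25 to 0.12) at 12 h. TC_63215 had 0.05 (-0.13 to 0.23) and 0.08 (-0.10 to 0.26).

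M18 and C12 were at the same stage of germination but not at the same time, and their libraries also ranked the list. The median log2 fold change was -0.04 and the range -0.42 to 0.27, with none called beside 3.39% of all tested contigs. With no fold threshold edgeR put 5 higher and 9 lower (13.3% and 15.3% among all tested), 21 passed with DESeq2, and the interval lay within -0.5 and 0.5 for 96 of the 100 (36.1% of all tested). The lowest was TC_68814, with -0.42 (95% interval -0.55 to -0.28), followed by TC_44619, with -0.39 (-0.55 to -0.24). The highest was TC_64094, with 0.27 (0.10 to 0.44). In CPM, 3 contigs had all M18 libraries above C12 and 20 all below, beside 9.66% and 15.4% of all tested.

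M18 library 5 is the only library the ranking did not use, and there the list was not level. Relative to the mean of the other 4 M18 libraries, 93 of the 100 were lower in CPM and 44 lower by 2-fold or more, with a median log2 difference of -0.89. For 77 the value was below all 29 libraries, for 2 above them and for 21 within their range. The 4290 other contigs of at least 50 CPM had a median of -0.85 and quartiles of -1.42 and -0.30, where the 100 had quartiles of -1.25 and -0.49. The lower CPM in this library was thus shared with the other contigs. Of those others, 41.8% were below all 29 libraries and 5.78% above. The 29 libraries span a wider range for these than for the list, so the shares are not on the same footing. It is a single library, so these are values with no test.

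The listed contigs also scattered more in this library. The SD over the 100 of the log2 difference was 0.63, while each of the other M18 libraries, set against the remaining 3, gave 0.09 to 0.11. The corresponding values of the other contigs were 1.09 and 0.26 to 0.38. Another 1954 contigs were at least 4-fold higher in M18 library 5 and held 23.5% of its counts, against 2.42% ± 1.12 in the other M18 libraries (n = 4), and none of the 100 was among them. The LEA contig AT2G35300 stood at 296.3 CPM in this library, beside 8.77 ± 3.95 CPM in the other M18 libraries (n = 4), while TIP3;1 stood at 2.22 CPM beside 2.21 ± 1.09 CPM. The part of these contigs in the lower CPM of the list was not tested. With TMM factors over the 30 libraries the median difference was -0.11 and, scaled by the reference contigs, 0.63, so the common shift depended on the scaling.

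**Figure D5:**
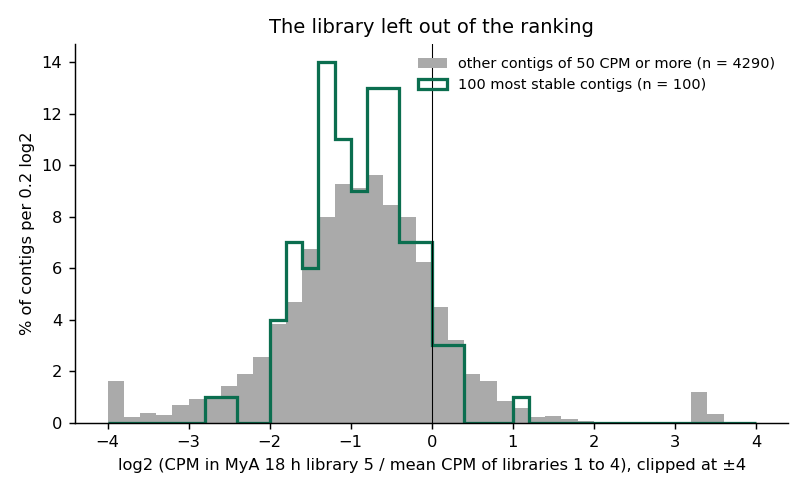
Distribution of the log2 difference between MyA 18 h library 5 and the mean of MyA 18 h libraries 1 to 4, as % of contigs per 0.2 log2, for the 100 most stable contigs (green) and the 4290 other contigs of 50 CPM or more (grey). Both centre below 0, at medians of -0.89 and -0.85.

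TC_46323, the last contig of the list, was lowest, at 11.8 CPM in M18 library 5 and 72.1, 71.3, 76.3 and 78.5 CPM in the other M18 libraries. TC_37312 was at 12.9 CPM beside 64.3 to 76.1 CPM, and TC_66063 at 32.3 CPM beside 114.7 to 144.1 CPM. In contrast, TC_69309 stood at 299.4 CPM, above its range of 125.5 to 211.7 CPM in the 29 libraries. TC_66504 was at 81.9 CPM, with a range of 55.8 to 79.4 CPM. TC_43628 was at 106.1 CPM, higher than in the other M18 libraries but within its range of 69.7 to 127.7 CPM. PP2AA2 and CAC AP2M were at 34.3 and 113.9 CPM there, below all 29 libraries, and Hobbit at 10.5 CPM was within its range.

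Which contigs count as the most stable depended on the scaling. The same rule applied to CPM with TMM factors kept 13 of the 100, with RLE factors 11, and with scaling by the reference contigs 5. The 100 then had a median SD/mean of 17.4%, 18.36% and 19.96%, while the medians of all contigs that could be chosen were 35.9%, 36.1% and 38.4%. The median of the list was below that of all eligible contigs on each of these scales. The list was chosen for low spread in the same counts, so its lower median is a description. Most of its contigs were no longer among the lowest 100. Without the DS libraries the rule kept 34, and with M18 library 5 included it kept 60.

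The 11 contigs kept under both TMM and RLE factors, named after their values were seen, were TC_65197, TC_63668, TC_67359, TC_70025, TC_68646, TC_34775, TC_67894, TC_68827, TC_64410, TC_35313 and TC_39335. None of them was kept with the reference contigs as scale, which kept TC_70607, TC_69035, TC_39860, TC_68735 and TC_39147 instead. In CPM all 11 had their lowest group mean in DS. Both kinds of factor raised DS relative to the imbibed groups, so contigs low in DS in CPM were favoured by this choice. TC_63668 was at 80.7 ± 3.42 CPM in DS and 101.3 ± 5.04 CPM in C12 (n = 5 each), and with TMM factors at 108.6 ± 2.58 and 89.9 ± 5.74 CPM. TC_70025 was at 50.9 ± 2.18 CPM in DS and 67.1 ± 3.40 CPM in C6 (n = 5 each), and with TMM factors at 68.4 ± 2.29 and 66.6 ± 4.31 CPM. Its SD/mean was 11.5% in CPM and 7.60% with TMM factors, where that of TC_63215 went from 7.001% to 21.1%.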

How the data were processed

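The authors deposited raw counts per contig, whole numbers with no normalization. Per the study's methods and the submitters' processing notes, 150 bp paired-end reads were mapped with BWA to an assembly of contigs of at least 200 bp and counted with HTSeq (versions not given in the sources used here). The library kit was directional, and the strand setting of counting is not given there. Libraries were grouped by their own labels. The study calls its replicates biological, but different seed lots within a group are not stated in the labels. The p-values measure only the spread between these libraries.

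The contigs and lists were chosen with earlier results of these data known. Contigs named with values were those of lowest SD/mean (10), highest level (5), list edge (3 on each side), largest ratio of group means (5) and the 3 highest and 3 lowest in M18 library 5, with the RT-qPCR references; others are said to be chosen later. The 5 comparisons were fitted on their own libraries with edgeR 4.0.16 (R 4.3.3, TMM, glmQLFit, glmQLFTest, Benjamini-Hochberg) over 22155 contigs with at least 5 CPM in at least 4 of 29 libraries, and the intervals are 95% intervals. The fits were tested on simulated data. Alternatives were DESeq2 1.42.0, RLE factors, library size, scaling by reference contigs, other filters, 1 fit of all groups, a replicate block and single libraries left out. No 2 libraries held identical counts. Counting errors cover counting only. Columns not used: 0. Replicate numbers were not taken as pairs.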

Additional observations from a re-analysis of the deposited data

Results flagged for a closer look

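TC_64094 in C12 library 1 stood at 55.0 CPM, far below the other 4 libraries of the group at 61.1 to 62.8 CPM. TC_67099 in DS library 1 stood at 353.5 CPM, far above the others at 280.5 to 298.6 CPM. Of 84 contig groups of 4 or 5 libraries examined with Dixon's 95% limit these 2 stood out, and chance flags about 1 in 20.

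In M18 library 5, which entered alternative settings but none of the comparisons as reported, TC_66504 stood at 81.9 CPM and TC_69309 at 299.4 CPM, both above every control library and above all 29 libraries used.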

How the results depend on the processing

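No contig of the list passed the 2-fold call in any of 5 comparisons. Of all tested contigs 49.9% passed in C6 against DS, 27.4% in C12 against C6 and 0.0135% in M6 against C6. The shares were 8.59% in M12 against C12 and 3.39% in M18 against C12. Of 95 alternative counts for the list 92 were 0. The list was chosen for small differences over these libraries, so nothing is read from these zeros. The other 3 counts, with no fold threshold, were 95 in C6 against DS, 13 in C12 against C6 and 14 in M18 against C12. Beside them stood 80.1%, 63.4% and 28.6% of all tested contigs. By library size the median log2 fold change was 0.0064 in C6 against DS and -0.10 in M18 against C12. Scaled by the reference contigs it was 0.41 in C6 against DS, -0.49 in C12 against C6 and -0.16 in M18 against C12. The cause was not tested. The list's median SD/mean, 11.2% as reported, was 17.4% with TMM factors, 18.36% with RLE factors, 19.96% scaled by the reference contigs, 14.1% with M18 library 5 and 10.5% without dry seed. It was 10.5% without M12 and M18, 13.1% with totals that leave out the 100 contigs highest in dry seed and 11.3% with totals that leave out those enriched in M18 library 5, settings chosen after seeing the data. Without 1 library at a time it ran from 10.9% to 11.3%. The rule kept 13 with TMM factors, 11 with RLE factors, 5 with the reference contigs, 60 with M18 library 5, 34 without dry seed, 65 by group means, 56 and 49 with a minimum of 20 and 100 CPM, and 37 with totals without the contigs highest in dry seed. In M18 library 5 the median log2 difference was -0.11 with TMM factors and 0.63 scaled by the reference contigs. Replicate numbers are shared between groups, and correlations of same-numbered libraries passed 0.1 in 3 of 5, 2 of 5, 4 of 5, 4 of 5 and 0 of 4 pairs, while 1, 1, 3, 2 and 0 correlated best with their own number, so they were not read as pairs. With the replicate number as a block the 2-fold count of the list stayed at 0. With no fold threshold it was 93, 2, 0, 0 and 1 in place of 95, 13, 0, 0 and 14. Over all tested contigs the 2-fold calls with the block were 11285, 6024, 3, 1923 and 453, in place of 11064, 6078, 3, 1904 and 752. The share of all tested contigs with the block and no fold threshold was not counted, so nothing is read from the counts of the list. Depth limited little, since the lowest count of a listed contig was 763.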
